A study of Mus musculus with 12 samples.

Results

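The genes described here carry fatty acids into oxidation: 4 long-chain acyl-CoA synthetases that activate them, 20 genes of the mitochondrial steps, 5 genes of the peroxisomal steps and 4 genes that regulate the pathway. They were taken as the rows of the count matrix that bear 1 of 33 gene symbols, all 33 were found among the 47729 gene rows, and all 33 passed the filter on low counts that left 15232 tested genes. Pdk4 passed only through the IL4c untreated libraries, the group where it is highest, and Ppara only through IL4c libraries; their counts in the TG libraries were at most 15 and 8.

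Peritoneal macrophages from C57BL/6 mice were sequenced as polyA RNA after 24 h in culture, in 4 groups of 3 libraries. TG SPARC and TG untreated cells came from mice given 3% thioglycollate (TG), an irritant broth that draws monocytes into the peritoneum, 1 time, 4 days before collection. IL4c SPARC and IL4c untreated cells came from mice given IL-4 complex (IL4c), 5 ug of the cytokine IL-4 bound to 25 ug of anti-IL-4 antibody, in 2 injections 2 days apart with collection 2 days after the last. In all groups 3000000 lavage cells were plated, cells that had not attached after 2 h were washed off, and the wells then received either 20 ug/ml of SPARC, a secreted matricellular glycoprotein, or nothing. No control protein and no uninjected mice are named in the labels. Nor do they tie replicates to different mice, and the p-values therefore rest on the spread among libraries that may be technical.

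A fatty acid must be joined to coenzyme A by an acyl-CoA synthetase before it can be burned, stored or built into membranes. Long-chain acyl-CoA enters mitochondria through the carnitine shuttle, in which Cpt1a makes acylcarnitine at the outer membrane, Slc25a20 carries it across the inner membrane and Cpt2 returns it to acyl-CoA. Inside, each turn of β-oxidation runs through a dehydrogenase, a hydratase, a second dehydrogenase and a thiolase, and the electron transfer flavoprotein passes electrons to the respiratory chain. Peroxisomes shorten very long and branched chains by a like cycle that starts with an oxidase. In macrophages, IL-4 activation is known for raised fatty acid oxidation, while inflammatory stimuli are known to raise Acsl1.

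Promoter sequences from RefSeq (GRCm38.p6, 250 bases before to 50 after each start) were at hand for 27 of the 33 genes, with 28 entries. There was none for Acaa2, Acad9, Acat1, Crat, Decr1 and Ppargc1b. The windows below belong to the gene with the largest rise in both SPARC comparisons (Acsl1, with its 2 listed starts), to the gene of the shuttle's first step (Cpt1a) and to Hadhb, which lies head to head with Hadha. Capitals mark letters of any motif searched on both strands.
Acsl1, first start, chr8:46470787-46471086, plus strand: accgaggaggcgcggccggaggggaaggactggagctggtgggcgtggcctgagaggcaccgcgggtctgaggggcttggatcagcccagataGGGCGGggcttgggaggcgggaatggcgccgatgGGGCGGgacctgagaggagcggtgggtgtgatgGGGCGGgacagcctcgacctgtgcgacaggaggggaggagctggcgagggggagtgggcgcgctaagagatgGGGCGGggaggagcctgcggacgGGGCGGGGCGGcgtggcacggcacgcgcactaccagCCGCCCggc
Acsl1, second start, chr8:46490716-46491015, plus strand: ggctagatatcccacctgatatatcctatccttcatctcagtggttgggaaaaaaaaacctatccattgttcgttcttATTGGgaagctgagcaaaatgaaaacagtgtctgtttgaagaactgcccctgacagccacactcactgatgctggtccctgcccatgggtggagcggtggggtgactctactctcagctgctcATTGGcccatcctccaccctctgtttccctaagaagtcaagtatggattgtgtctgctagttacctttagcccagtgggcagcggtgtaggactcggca
Cpt1a, chr19:3323051-3323350, plus strand: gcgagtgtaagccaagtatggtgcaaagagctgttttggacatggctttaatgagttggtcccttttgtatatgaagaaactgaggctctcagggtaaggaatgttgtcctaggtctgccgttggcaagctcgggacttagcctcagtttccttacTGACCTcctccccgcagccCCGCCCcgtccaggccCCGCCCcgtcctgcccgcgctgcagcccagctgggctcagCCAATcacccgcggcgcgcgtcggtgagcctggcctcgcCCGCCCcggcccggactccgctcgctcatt
Hadhb, chr5:30155003-30155302, plus strand: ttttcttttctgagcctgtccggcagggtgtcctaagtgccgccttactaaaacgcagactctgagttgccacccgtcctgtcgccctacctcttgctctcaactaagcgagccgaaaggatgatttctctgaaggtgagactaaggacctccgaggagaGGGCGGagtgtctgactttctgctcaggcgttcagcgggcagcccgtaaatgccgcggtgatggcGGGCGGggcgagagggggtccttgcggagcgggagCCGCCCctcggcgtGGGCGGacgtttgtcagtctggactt

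All capitals in the first Acsl1 window belong to GC boxes (GGGCGG, read on either strand) and those in the second to CCAAT boxes (CCAAT), while Cpt1a held both kinds and 1 nuclear receptor half-site (AGGTCA). The GC box occurred in 22 of the 28 entries (78.6%), against 35.7% of all 32851 promoters in the table. The CCAAT box occurred in 14 entries (50%, against 37.4%), and the half-site in 4 (14.3%, against 16.3%), namely those of Acadm, Acadvl, Cpt1a and Echs1. No entry held 2 such half-sites in the same direction with 1 base between them, the form that PPARs and their partner bind (0.0396% of all promoters), nor 2 runs of GAAA with 2 bases between them, the core of the interferon-stimulated response element (3.44%). Such matches describe letters in these windows only. The RefSeq starts of Hadha (minus strand) and Hadhb (plus strand), which encode the α and β subunits of the mitochondrial trifunctional protein, lie 273 bases apart on chromosome 5, so 228 bases of the Hadhb window also belong to that of Hadha.

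Each library held between 31501900 and 42288800 estimated gene counts, so 3 counts stood for 0.0707 to 0.0974 CPM (counts scaled by library sizes that TMM had adjusted). Macrophage markers were abundant in all libraries, with 734 to 3362 CPM of Adgre1 and 1100 to 2368 CPM of Csf1r. Both TG libraries numbered 1 stood apart: 12 B cell markers summed to 1929 CPM in TG SPARC replicate 1, against 182 and 218 CPM in the other TG SPARC libraries, and to 2543 CPM in TG untreated replicate 1, against 284 and 295 CPM in the other TG untreated libraries. The IL4c libraries numbered 3 stood apart as well: 10 markers of large resident peritoneal macrophages summed to 2998 CPM in IL4c SPARC replicate 3, against 4742 and 4756 CPM in the other IL4c SPARC libraries, and to 3727 CPM in IL4c untreated replicate 3, against 7600 and 7264 CPM in the other IL4c untreated libraries. Fn1 weighed most in the sums of the 10, with 778 to 6537 CPM over all libraries, while the next highest, Cd9, reached 566 CPM. In bulk RNA, fewer cells of a type and less RNA per cell cannot be told apart. Results that rest on these libraries are given with and without them. A gene is called higher or lower at a Benjamini-Hochberg adjusted p under 0.05 in edgeR's quasi-likelihood test over all 15232 genes, and fold changes are log2 values ± SE. Median fold changes over all tested genes lay between −0.05 and 0.02 in the 5 comparisons. With total-count scaling they were −0.10 for SPARC in TG cells, 0.00 for SPARC in IL4c cells, and −0.16 in untreated and −0.07 in SPARC wells for IL4c against TG cells.

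**Figure D1:**
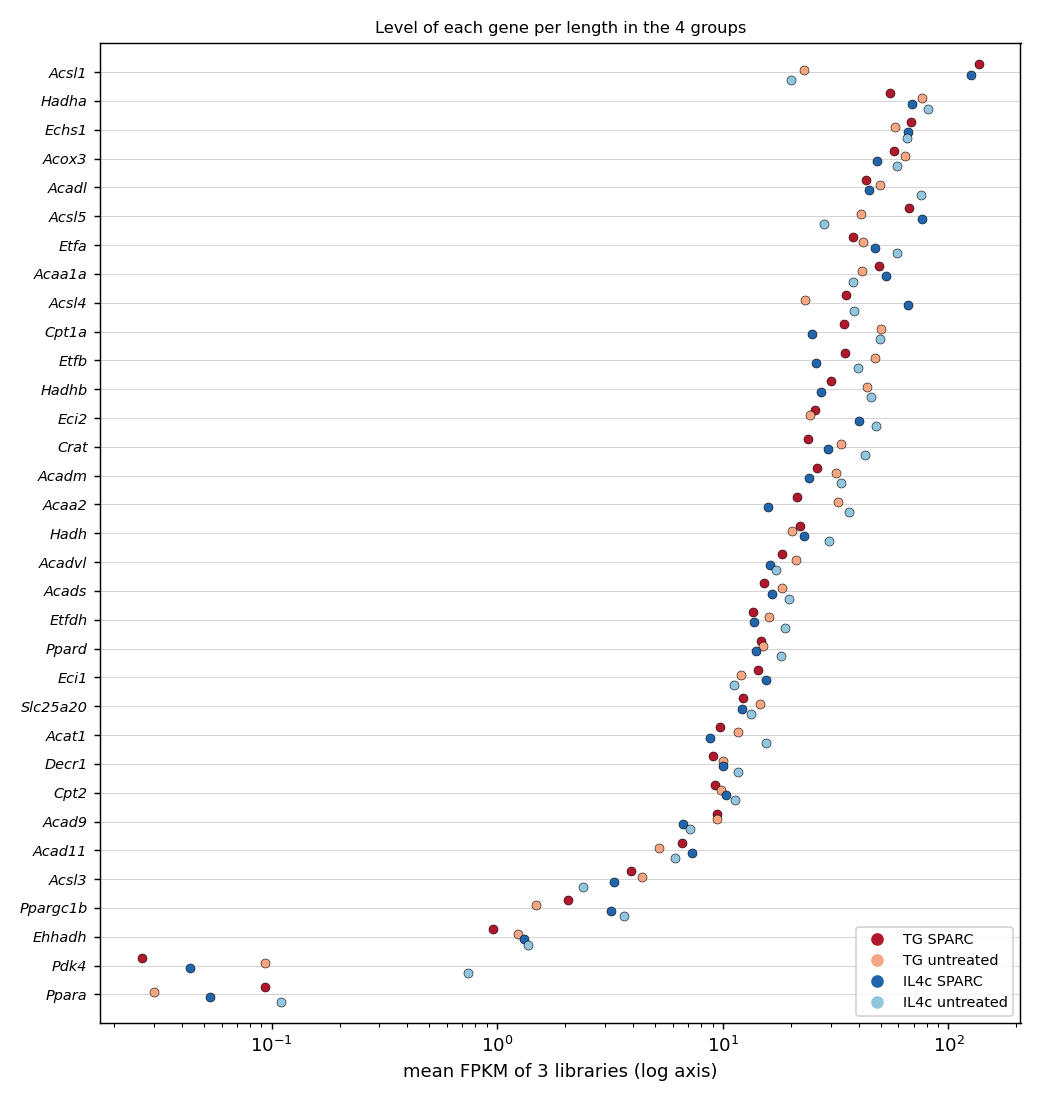
Mean FPKM (log axis) of each gene in the 4 groups of 3 libraries, ordered by level. Acsl1 averaged 136 FPKM in TG SPARC and 22.9 FPKM in TG untreated cells, while Pdk4, Ppara and Ehhadh were the lowest genes.

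Levels between genes were compared as FPKM, which the authors scaled by gene length. In IL4c untreated cells Hadha stood highest at 81.3 FPKM, followed by Acadl at 75.6, Echs1 at 65.5, Acox3 at 59.1, Etfa at 58.9 and Cpt1a at 49.6 FPKM. With SPARC the order changed at the top, where Acsl1 averaged 126 FPKM and Acsl5 76.5 FPKM in IL4c SPARC cells. In the same cells Hadha averaged 68.6 FPKM and Acadl 44.3 FPKM. The plot of FPKM by gene shows that Ehhadh, the bifunctional enzyme of peroxisomes, was low in all groups, at 0.957 FPKM in TG SPARC, 1.24 in TG untreated, 1.31 in IL4c SPARC and 1.37 FPKM in IL4c untreated cells. Ppara averaged 0.0933, 0.0300, 0.0533 and 0.110 FPKM in the same groups.

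The comparison of SPARC with untreated wells asks how the protein changes macrophage gene expression. In TG cells with SPARC 4 of the 33 genes were higher and 5 were lower, where 6.73% of all tested genes were higher and 4.52% were lower. In IL4c cells with SPARC 5 were higher and 13, Pdk4 among them, were lower, where 15.1% of all tested genes were higher and 12.7% were lower. Pdk4 passed the filter only through the IL4c untreated libraries, so its place among the 13 is a description. Apart from Pdk4, the lower genes were 12 of the mitochondrial steps. Of the genes called higher, Acsl1, Acsl4 and Acsl5 were shared by both comparisons, which is 3 of the 4 in TG and 3 of the 5 in IL4c cells. Of the genes called lower, Cpt1a, Acaa2, Hadha, Hadhb and Etfb were shared, which is all 5 in TG and 5 of the 13 in IL4c cells. These comparisons share no library, but both come from the same fit and share its estimate of the spread. The share of all tested genes called in both comparisons was not counted, so the shared calls are a description. Library numbers were read, from the data and not the labels, as pairing the libraries within an injection. With the number as a block 8 genes were higher and 7 were lower in TG SPARC cells (14.3% and 13.1% of all tested genes), and 7 were higher and 15 were lower in IL4c SPARC cells (22.8% and 22.4%). DESeq2 called 7 higher in TG SPARC cells (9.94%). Leaving out TG untreated replicate 1 gave 7 higher genes in TG SPARC cells and leaving out TG untreated replicate 3 gave 2, while the number of lower ones was 0 to 3 without any 1 of the TG libraries or IL4c untreated replicate 1 or 2, and 0 when TG SPARC replicate 3 was left out.

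Cell type markers moved beside these results. In IL4c cells, 9 macrophage markers summed to between 13384 and 19109 CPM with SPARC and between 21022 and 28149 CPM without. Their sum did not separate TG cells in that way, with 30666 to 31458 CPM in SPARC wells and 22360 to 35201 CPM in untreated wells. Lyz2 weighed most in these sums, with 4444 to 27859 CPM over all libraries, while the next highest, Itgam, reached 3463 CPM. Taken gene by gene, 1 of the 9 was higher, 2 were lower and 6 were not called in IL4c SPARC cells (median 0.08). The sums therefore do not show a fall of the 9 markers as a set. The 12 B cell markers summed to between 84.5 and 189 CPM in IL4c SPARC and between 170 and 424 CPM in IL4c untreated cells. The 9 fibroblast and mesothelium markers summed to between 61.9 and 114 CPM in IL4c SPARC and between 7.08 and 19.0 CPM in IL4c untreated cells. Dcn alone had 1.49 to 108 CPM over all libraries. Of the 6 tested markers of this list, 1 was higher, none was lower and 5 were not called in IL4c SPARC cells (median 0.57). These sums therefore do not show a rise of the fibroblast and mesothelium markers as a set. The 8 neutrophil markers summed to between 91.2 and 288 CPM in TG SPARC and between 40.2 and 52.3 CPM in TG untreated cells, and to between 48.2 and 195 CPM in IL4c SPARC and between 29.6 and 40.6 CPM in IL4c untreated cells, with Ly6g at no more than 1 count and Ngp at no more than 3 counts in any library. S100a9, Retnlg and Cxcr2 had at most 3, 10 and 22 counts. Mmp8 weighed most in the highest of these sums, with 20.1 to 235 CPM over all libraries, while the next highest, S100a8, reached 51.6 CPM. Of the 3 tested neutrophil markers, 1 was higher in TG SPARC and 2 were higher in IL4c SPARC cells. The highest sums, in TG SPARC replicate 1 and IL4c SPARC replicate 3, were in the libraries with the highest Acsl1 of their groups. The 8 markers of monocytes and small macrophages summed to between 311 and 422 CPM in IL4c SPARC and between 440 and 727 CPM in IL4c untreated cells, and to between 677 and 824 CPM in TG SPARC and between 388 and 906 CPM in TG untreated cells. For all 84 cell type markers, of which 68 were tested, 2 were higher and 2 lower in TG SPARC cells and 5 were higher and 8 lower in IL4c SPARC cells. The shares over all tested genes were 6.73% and 4.52% in TG and 15.1% and 12.7% in IL4c SPARC cells. The part of other cells in the results below was not tested.

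Of the 4 activation genes, Acsl1, Acsl4 and Acsl5 rose with SPARC in both kinds of cells and Acsl3 was not called in either. The median fold changes of the 4 were 0.71 in TG cells, where 6.73% of all tested genes were higher, and 1.12 in IL4c cells, where 15.1% were. Acsl1 (ENSMUSG00000018796.12, protein coding, GRCm38 chromosome 8, 46471037 to 46536051, plus strand), a long-chain acyl-CoA synthetase of macrophages and fat, had 843, 291 and 357 CPM in TG SPARC libraries, against 88.1, 72.3 and 80.7 CPM in TG untreated libraries. In IL4c SPARC libraries it had 354, 397 and 683 CPM, against 68.1, 83.6 and 78.0 CPM in IL4c untreated libraries. Every SPARC library lay above every untreated one, and TG SPARC replicate 1 and IL4c SPARC replicate 3 were the highest of their groups. The fold changes were 2.63 ± 0.40 in TG cells (adjusted p = 0.00439) and 2.64 ± 0.40 in IL4c cells (adjusted p = 0.00127, edgeR). Without TG SPARC replicate 1 the TG value was 2.05, and without IL4c SPARC replicate 3 the IL4c value was 2.31.

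Acsl5 (ENSMUSG00000024981.5, protein coding, GRCm38 chromosome 19, 55251938 to 55297720, plus strand), a synthetase of mitochondria and endoplasmic reticulum, had 265, 167 and 178 CPM in TG SPARC, against 119, 127 and 116 CPM in TG untreated libraries. It had 219.8, 262 and 242 CPM in IL4c SPARC, against 88.8, 88.0 and 89.9 CPM in IL4c untreated libraries. The groups did not overlap in either kind of cell, and Acsl5 rose by 0.76 ± 0.16 in TG cells (adjusted p = 0.0146) and by 1.44 ± 0.16 in IL4c cells (adjusted p = 2.54e-04). Without TG untreated replicate 3 the TG call was lost (adjusted p = 0.0517). Without TG SPARC replicate 1 its TG value was 0.56.

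Acsl4 (ENSMUSG00000031278.12, protein coding, GRCm38 chromosome X, 142317993 to 142390535, minus strand) prefers arachidonic acid and other polyunsaturated chains. It had 181, 169 and 166 CPM in TG SPARC, against 117, 101 and 106 CPM in TG untreated libraries, and 333, 330.2 and 345 CPM in IL4c SPARC, against 207, 171 and 199 CPM in IL4c untreated libraries. The 3 libraries of a group lay close together, and Acsl4 rose by 0.67 ± 0.09 in TG cells (adjusted p = 0.00301) and by 0.80 ± 0.09 in IL4c cells (adjusted p = 3.12e-04). Acsl3, a synthetase of endoplasmic reticulum and lipid droplets, was the lowest of the 4 in CPM, with 9.63, 7.21 and 12.5 CPM in IL4c SPARC and 4.61, 5.87 and 8.07 CPM in IL4c untreated libraries. Those groups overlapped, and its fold change of 0.66 ± 0.27 passed only with the replicate block (adjusted p = 0.0978, and 0.0340 with the block). In TG cells its fold change was −0.06 ± 0.27 (adjusted p = 0.924).

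**Figure D2:**
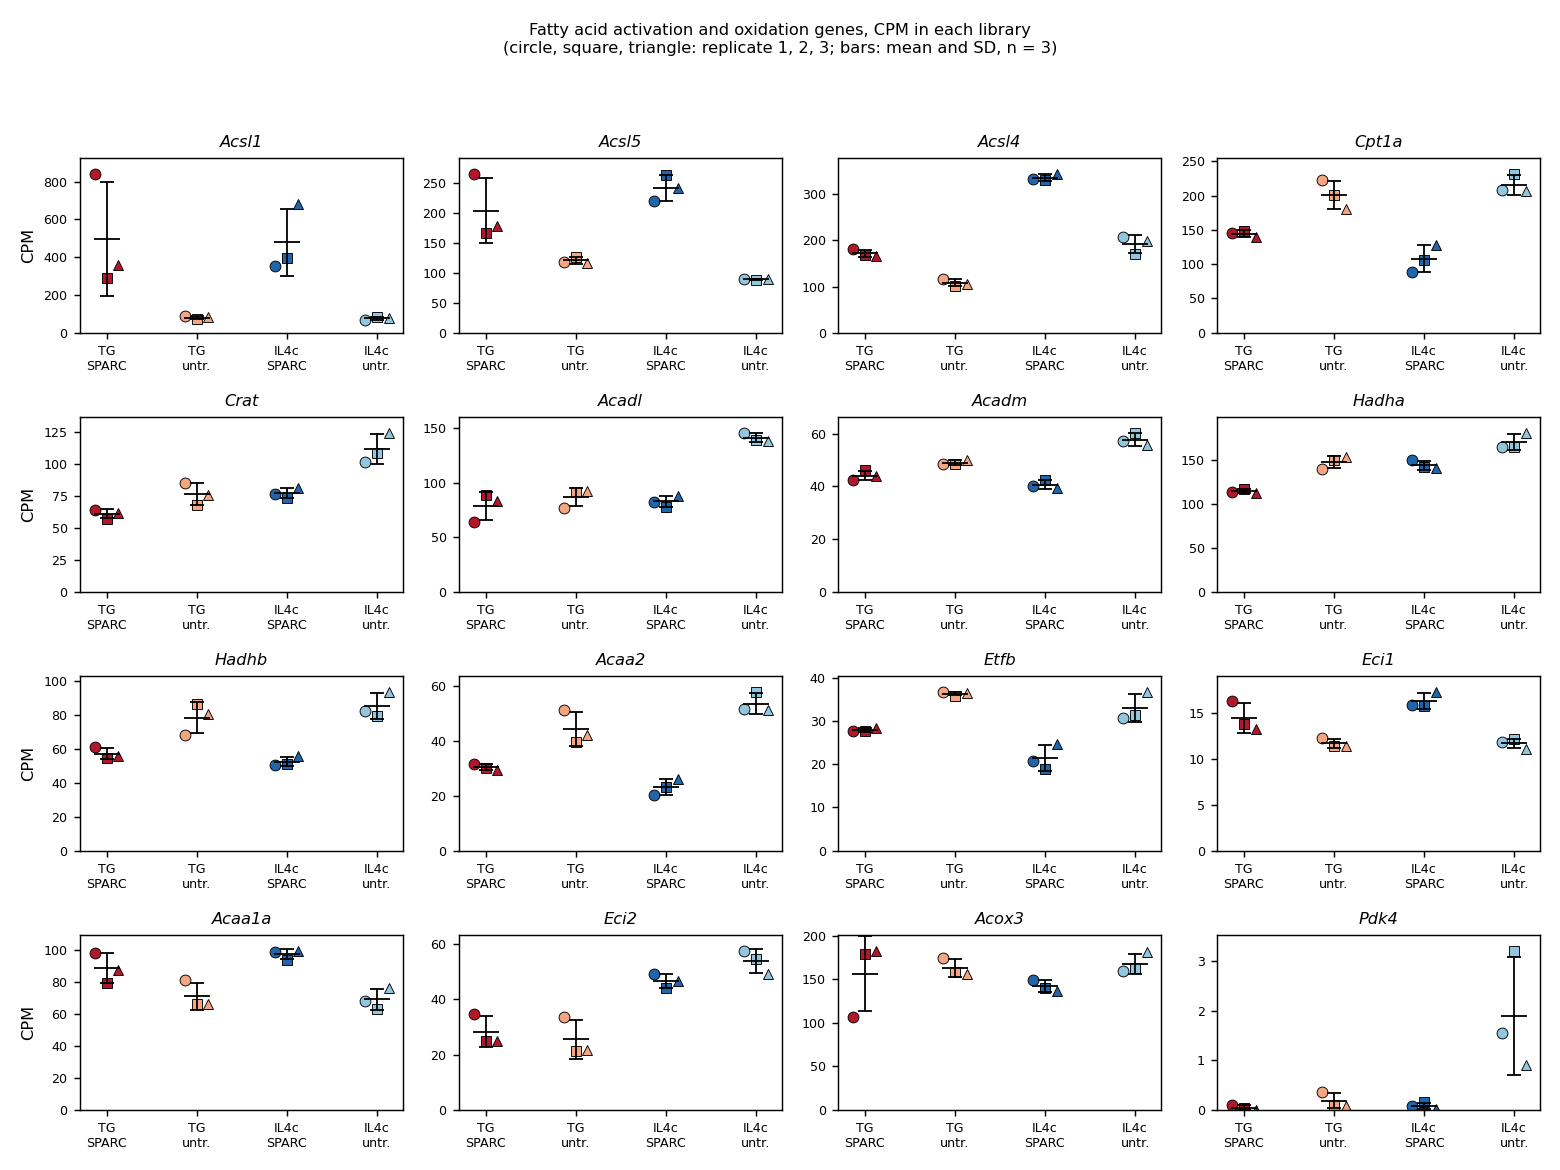
CPM of chosen genes in each of the 12 libraries (linear axes from 0), with replicates 1, 2 and 3 of each group side by side; bars give the mean and SD (n = 3). Acsl1, Acsl4 and Acsl5 lie higher and Cpt1a and Acaa2 lower in every SPARC library than in any untreated library of the same injection.

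Of the 20 genes of the mitochondrial steps, 1 was higher and 5 were lower in TG SPARC cells, with 14 not called and a median fold change of −0.16, and 1 was higher and 12 were lower in IL4c SPARC cells, with 7 not called and a median of −0.33. Over all tested genes the medians were −0.03 and −0.00. Of all tested genes, 6.73% were higher and 4.52% lower in TG SPARC cells, and 15.1% and 12.7% in IL4c SPARC cells. Among the 16 genes after the shuttle, 4 were lower in TG and 10 in IL4c cells. Without both TG libraries numbered 1, 3 genes of the whole set of 33 were lower in TG cells, where 5.93% of all tested genes were lower. These were Acaa2 (−0.43, adjusted p = 0.0355), Hadha (−0.38, adjusted p = 0.0112) and Hadhb (−0.57, adjusted p = 0.00452), while Cpt1a (−0.38, adjusted p = 0.128) and Etfb (−0.35, adjusted p = 0.103) were not called. Acsl1 (2.10, adjusted p = 0.00267), Acsl4 (0.71, adjusted p = 0.00211), Acsl5 (0.53, adjusted p = 0.00752) and Echs1 (0.33, adjusted p = 0.0170) were called higher without those libraries too. Without both IL4c libraries numbered 3, 10 genes of the 33 were lower in IL4c SPARC cells, where 7.20% of all tested genes were lower; the calls lost were Hadh (−0.38, adjusted p = 0.0543), Hadha (−0.16, adjusted p = 0.292) and Etfa (−0.29, adjusted p = 0.0676).

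At the shuttle, Cpt1a (ENSMUSG00000024900.4, protein coding, GRCm38 chromosome 19, 3322334 to 3385733, plus strand), the step that malonyl-CoA inhibits, had 146, 149 and 139 CPM in TG SPARC, against 222, 201 and 181 CPM in TG untreated libraries. In IL4c SPARC libraries it had 88.6, 106 and 128 CPM, against 207, 232 and 207 CPM in IL4c untreated libraries. No SPARC library reached an untreated one in either kind of cell, and Cpt1a fell by 0.48 ± 0.13 in TG cells (adjusted p = 0.0421) and by 1.00 ± 0.13 in IL4c cells (adjusted p = 6.11e-04). The IL4c call held in all 12 fits that left out 1 library, while the TG call was lost in 10 of them, all but those that left out IL4c SPARC replicate 1 or 3 (adjusted p between 0.0590 and 0.120). Crat, which moves acetyl groups between coenzyme A and carnitine, had 76.2, 73.3 and 81.3 CPM in IL4c SPARC and 101, 109 and 124 CPM in IL4c untreated libraries and fell by 0.53 ± 0.10 (adjusted p = 0.00434). In TG cells, with 63.9, 57.2 and 61.7 CPM in SPARC and 85.1, 67.6 and 75.8 CPM in untreated libraries, its fold change was −0.32 ± 0.10 (adjusted p = 0.0735, and 0.0113 with the block). Slc25a20 and Cpt2 were not called, with fold changes of −0.18 ± 0.09 and −0.06 ± 0.11 in TG cells and of −0.13 ± 0.09 and −0.10 ± 0.11 in IL4c cells.

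The acyl-CoA dehydrogenases open each turn of the cycle, and each prefers a range of chain lengths. Acadl (ENSMUSG00000026003.5, protein coding, GRCm38 chromosome 1, 66830839 to 66863277, minus strand), for long chains, had 82.7, 78.1 and 88.0 CPM in IL4c SPARC, against 146, 139.7 and 139 CPM in IL4c untreated libraries, and fell by 0.77 ± 0.12 (adjusted p = 0.00146). In TG cells it had 64.2, 88.7 and 83.4 CPM with SPARC and 77.0, 91.6 and 92.2 CPM without, which overlapped (−0.14 ± 0.12, adjusted p = 0.505). Acadm, for medium chains, had 40.2, 42.5 and 39.4 CPM in IL4c SPARC and 57.2, 60.4 and 55.5 CPM in IL4c untreated libraries and fell by 0.50 ± 0.06 (adjusted p = 3.93e-04). Its TG value was −0.15 ± 0.06 (adjusted p = 0.138).
The IL4c falls of Acadl and Acadm held in all 22 alternative fits. Acads, for short chains, Acadvl, for very long chains, and Acad9, which also serves the assembly of respiratory complex I, were not called in either comparison. Their fold changes lay between −0.26 ± 0.11 (Acads) and −0.04 ± 0.06 (Acadvl) in IL4c cells and between −0.22 ± 0.11 (Acads) and 0.07 ± 0.08 (Acad9) in TG cells. Acadvl shares 42.9% of its exonic bases with Dvl2 on the opposite strand, and whether strand was used in counting is not given, so its level is uncertain.

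Further along the cycle, Acaa2 (ENSMUSG00000036880.9, protein coding, GRCm38 chromosome 18, 74779197 to 74806208, plus strand), the thiolase of medium and long chains, had the largest fall of the mitochondrial genes in IL4c cells. It had 20.4, 23.4 and 26.2 CPM in IL4c SPARC, against 51.6, 57.9 and 51.2 CPM in IL4c untreated libraries, and 31.7, 30.3 and 29.4 CPM in TG SPARC, against 51.3, 39.4 and 42.2 CPM in TG untreated libraries. Neither pair of groups overlapped, and Acaa2 fell by 1.20 ± 0.12 in IL4c cells (adjusted p = 1.56e-04) and by 0.54 ± 0.12 in TG cells (adjusted p = 0.0172). Without TG SPARC replicate 3 the TG call was lost (adjusted p = 0.0501). Without TG untreated replicate 1, the highest library of its group, the TG value was −0.42, and that of Hadhb was −0.55.

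Acat1, the thiolase that splits acetoacetyl-CoA and also acts in ketone use, had 22.7, 20.7 and 20.9 CPM in IL4c SPARC, against 40.8, 37.6 and 39.3 CPM in IL4c untreated libraries, and fell by 0.87 ± 0.19 (adjusted p = 0.00822). In TG cells it had 28.9, 23.3 and 23.4 CPM with SPARC and 39.6, 22.9 and 23.3 CPM without, so that replicate 1 was the highest of both groups and the groups overlapped (−0.19 ± 0.19, adjusted p = 0.596). Both subunits of the trifunctional protein were called lower in both kinds of cells, by unequal amounts in IL4c cells. Hadhb had 50.8, 51.2 and 55.8 CPM in IL4c SPARC, against 82.2, 79.6 and 93.8 CPM in IL4c untreated libraries (−0.70 ± 0.10, adjusted p = 9.69e-04), and 61.2, 55.0 and 55.7 CPM in TG SPARC, against 68.3, 86.5 and 80.9 CPM in TG untreated libraries (−0.46 ± 0.10, adjusted p = 0.0188). Hadha had 149.5, 141 and 141 CPM in IL4c SPARC, against 164, 165 and 181 CPM in IL4c untreated libraries (−0.24 ± 0.07, adjusted p = 0.0258), and 114, 117 and 112 CPM in TG SPARC, against 139.8, 150.2 and 153 CPM in TG untreated libraries (−0.37 ± 0.07, adjusted p = 0.0101).
No SPARC library reached an untreated one of the same injection for either subunit. Of the 12 fits that left out 1 library, the IL4c call of Hadha held in those without replicate 1 of TG SPARC, TG untreated or IL4c untreated cells and was lost in the other 9 (adjusted p between 0.0512 and 0.142) and its TG call was lost in 4, those without TG SPARC replicate 1 or 3 or TG untreated replicate 2 or 3 (adjusted p between 0.0506 and 0.0733). The TG call of Hadhb was lost in 4 as well, those without replicate 2 or 3 of either TG group (adjusted p between 0.0790 and 0.0932).

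Hadh, the dehydrogenase of medium and short hydroxyacyl chains, had 37.7, 37.7 and 45.6 CPM in IL4c SPARC, against 48.2, 51.1 and 58.5 CPM in IL4c untreated libraries, and fell by 0.38 ± 0.11 (adjusted p = 0.0302). Its TG value was 0.18 ± 0.11 (adjusted p = 0.365), with 34.7, 39.4 and 38.6 CPM in SPARC and 37.3, 30.1 and 32.3 CPM in untreated libraries. Without IL4c SPARC replicate 1 or 2, or without IL4c untreated replicate 2 or 3, the IL4c call was lost (adjusted p between 0.0719 and 0.117). Echs1, the hydratase of short chains, was the one mitochondrial gene called higher in TG cells, with 103, 106 and 106 CPM in SPARC, against 89.1, 88.4 and 83.2 CPM in untreated libraries (0.27 ± 0.06, adjusted p = 0.0250). Without TG SPARC replicate 2 or 3 or TG untreated replicate 3 that call was lost (adjusted p between 0.0703 and 0.0864). In IL4c cells it had 106, 97.8 and 112 CPM with SPARC and 105, 104 and 105 CPM without (0.00 ± 0.06, adjusted p = 0.972).

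Of the enzymes that deal with double bonds, Eci1, which shifts them, was the one mitochondrial gene called higher in IL4c SPARC cells. It had 15.8, 15.7 and 17.3 CPM there, against 11.8, 12.1 and 11.1 CPM in IL4c untreated libraries (0.48 ± 0.09, adjusted p = 0.00457). In TG cells it had 16.3, 13.8 and 13.2 CPM with SPARC and 12.2, 11.4 and 11.4 CPM without (0.31 ± 0.09, adjusted p = 0.0634, and 0.0376 with the block). Each Eci1 SPARC library lay above each untreated one. Decr1, a reductase that removes double bonds, had values of −0.09 ± 0.13 in TG and −0.22 ± 0.13 in IL4c cells and was not called.

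Electron transfer fell in IL4c cells at all 3 genes. Etfdh, which hands electrons to ubiquinone, had 32.1, 31.4 and 32.9 CPM in IL4c SPARC, against 44.1, 42.1 and 46.5 CPM in IL4c untreated libraries (−0.46 ± 0.07, adjusted p = 0.00126). Etfb, a subunit of the flavoprotein, had 20.6, 18.9 and 24.6 CPM in IL4c SPARC, against 30.7, 31.5 and 36.7 CPM in IL4c untreated libraries (−0.62 ± 0.10, adjusted p = 0.00173). Etfa, the other subunit, had 61.3, 52.7 and 65.8 CPM in IL4c SPARC, against 73.2, 67.5 and 77.2 CPM in IL4c untreated libraries (−0.28 ± 0.09, adjusted p = 0.0412).
The 3 genes had no overlap between those groups, a trait that was not counted over all tested genes. The call of Etfa held without either TG library numbered 1 or IL4c SPARC replicate 3 and was lost in the other 9 fits that left out 1 library (adjusted p between 0.0517 and 0.140). In TG cells Etfb had 27.7, 27.6 and 28.4 CPM with SPARC, against 36.6, 35.8 and 36.5 CPM without, and fell by 0.38 ± 0.10 (adjusted p = 0.0376), a call that held without IL4c SPARC replicate 2 or 3 or IL4c untreated replicate 3 and was lost in the other 9 fits (adjusted p between 0.0528 and 0.123). Etfa and Etfdh had TG values of −0.03 ± 0.09 and −0.16 ± 0.07 and were not called. Etfb shares 53% of its exonic bases with Gm45233 on the same strand, so its level is uncertain.

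**Figure D3:**
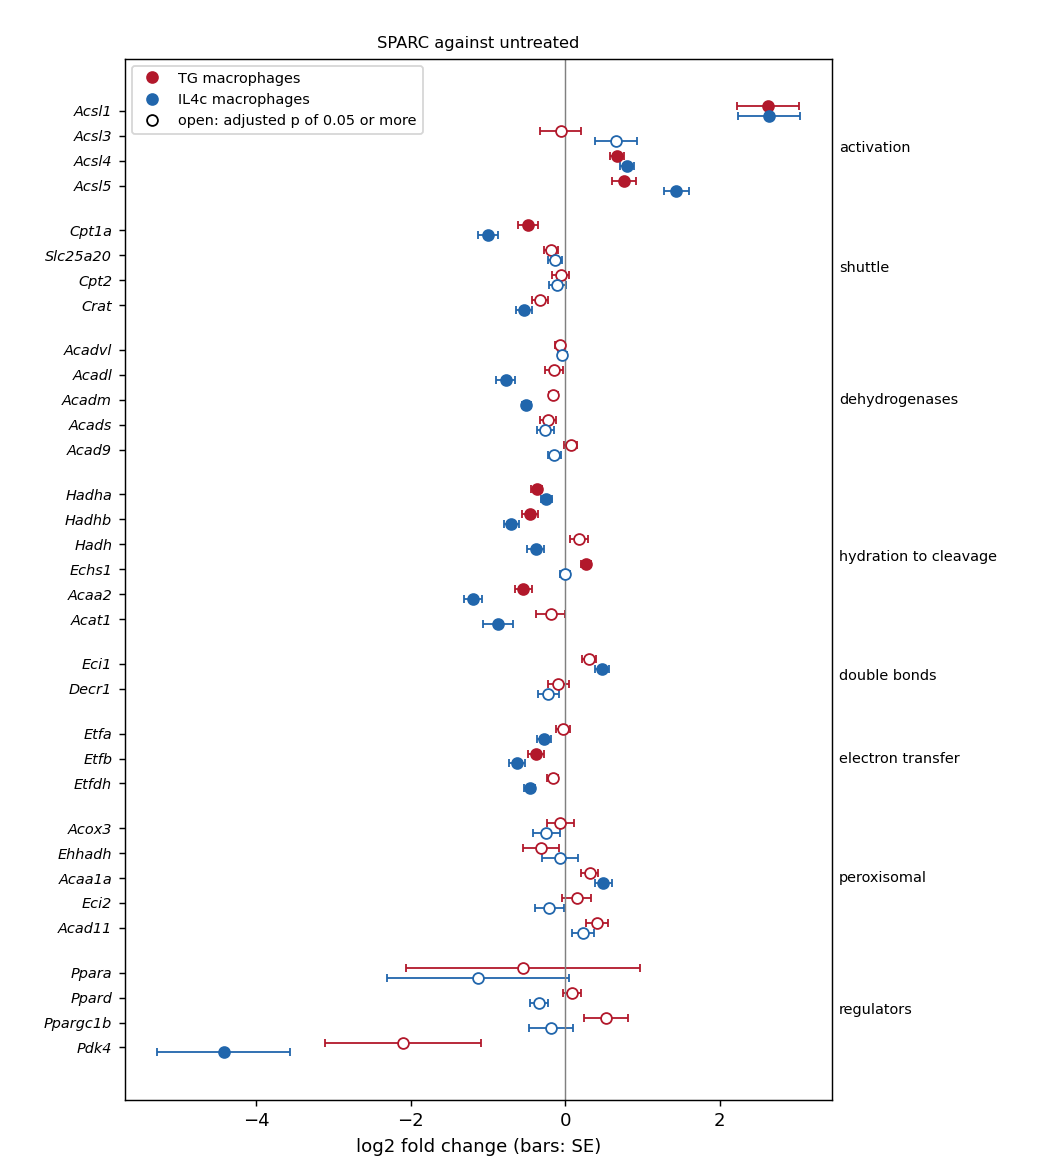
Log2 fold change of SPARC over untreated wells (bars: SE) for the 33 genes, ordered by step, in TG and IL4c cells. Filled points had an adjusted p under 0.05 (edgeR). Acsl1, Acsl4 and Acsl5 lie right of 0 and most mitochondrial genes left of it. Pdk4, filled for IL4c cells, passed the filter only through the IL4c untreated libraries.

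The peroxisomal steps were counted apart. None of the 5 genes was called in TG cells by edgeR, where 6.73% of all tested genes were higher and 4.52% were lower. In those cells 2, Acaa1a and Acad11, had an unadjusted edgeR p under 0.05, as did 4049 of the 15232 tested genes. The same 2 passed with the replicate block, where 14.3% of all tested genes were higher and 13.1% were lower. In IL4c cells 1 was higher and none lower, where 15.1% of all tested genes were higher and 12.7% were lower. The medians of the 5 were 0.15 in TG and −0.07 in IL4c cells. Acaa1a, a peroxisomal thiolase, had 98.7, 94.1 and 99.6 CPM in IL4c SPARC, against 68.3, 63.1 and 76.3 CPM in IL4c untreated libraries, without overlap, and rose by 0.49 ± 0.11 (adjusted p = 0.00866). In TG cells it had 98.4, 79.6 and 87.7 CPM with SPARC and 81.0, 66.1 and 66.2 CPM without (0.32 ± 0.11, adjusted p = 0.0935, and 0.00971 with the block). It has a near-identical copy, Acaa1b, so reads may be split between the 2 genes.
Acad11, a dehydrogenase of long chains, had 24.1, 20.7 and 19.6 CPM in TG SPARC and 19.6, 14.9 and 13.9 CPM in TG untreated libraries (0.41 ± 0.14, adjusted p = 0.0908, and 0.00587 with the block). In IL4c cells its value was 0.23 ± 0.14 (adjusted p = 0.251, and 0.0315 with the block). Both blocked values were called.

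Acox3, an oxidase of branched chains, had 48.3 FPKM in IL4c SPARC and 59.1 FPKM in IL4c untreated cells. It had 106, 179 and 183 CPM in TG SPARC, against 174, 159 and 156 CPM in TG untreated libraries. TG SPARC replicate 1 was the lowest and the TG groups overlapped. In IL4c cells Acox3 had 136 to 149 CPM with SPARC and 160 to 181 CPM without, which did not overlap. It was not called in either kind of cell (−0.06 ± 0.17 in TG, −0.24 ± 0.17 in IL4c cells). Eci2, a double-bond isomerase, had 49.3, 44.1 and 46.8 CPM in IL4c SPARC and 57.6, 54.7 and 49.2 CPM in IL4c untreated libraries (−0.20 ± 0.19, adjusted p = 0.456, and 0.0477 with the block, where it was lower). Its TG value was 0.15 ± 0.19, and both TG libraries numbered 1 were the highest of their groups, with 34.8, 25.0 and 25.0 CPM in SPARC and 33.6, 21.1 and 21.7 CPM in untreated libraries. Ehhadh was not called, with −0.31 ± 0.24 in TG and −0.07 ± 0.24 in IL4c cells.

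**Figure D4:**
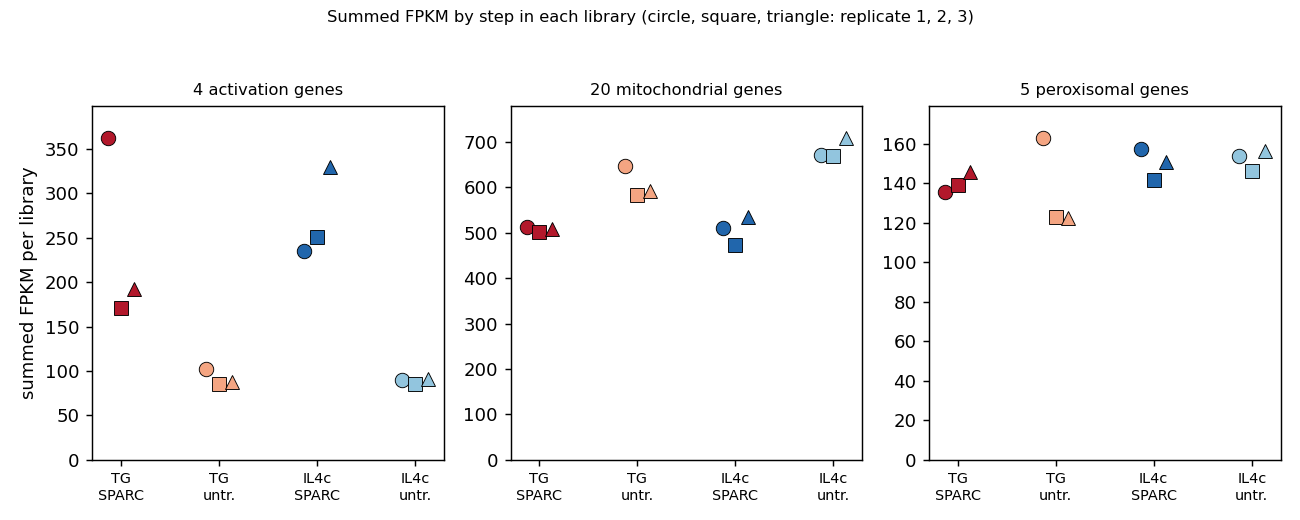
Summed FPKM of the activation, mitochondrial and peroxisomal genes in each library (linear axes from 0). SPARC libraries lie higher for activation and lower for the mitochondrial genes than the untreated libraries of the same injection, while the peroxisomal sums overlap.

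Added up by step, the 4 activation genes reached 362, 171 and 192 FPKM in TG SPARC, against 102, 85.1 and 87.4 FPKM in TG untreated libraries. In IL4c SPARC libraries they reached 235, 251 and 330 FPKM, against 89.3, 85.0 and 91.4 FPKM in IL4c untreated libraries. The 20 mitochondrial genes summed to 513, 501 and 507 FPKM in TG SPARC, against 647, 583 and 592 FPKM in TG untreated libraries. In IL4c SPARC they summed to 510, 474 and 535 FPKM, against 672, 669 and 709 FPKM in IL4c untreated libraries.
Neither sum overlapped between SPARC and untreated wells of an injection, as the plot of sums by step shows. The 5 peroxisomal genes summed to between 135 and 146 FPKM in TG SPARC and between 123 and 163 FPKM in TG untreated libraries, and to between 142 and 157 FPKM in IL4c SPARC and between 146 and 156 FPKM in IL4c untreated libraries, which overlapped. The activation sum was 0.706, 0.340 and 0.378 of the mitochondrial sum in TG SPARC and 0.460, 0.530 and 0.616 of it in IL4c SPARC libraries. It was between 0.146 and 0.158 of it in TG untreated and between 0.127 and 0.133 of it in IL4c untreated libraries. These sums describe the libraries and carry no test.

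Among the regulators, Pdk4 (ENSMUSG00000019577.6, protein coding, GRCm38 chromosome 6, 5483351 to 5496309, minus strand), a kinase that shuts pyruvate out of the citric acid cycle and a known target of PPARs, had 3, 6 and 1 counts in IL4c SPARC libraries, against 48, 106 and 34 counts in IL4c untreated libraries. All IL4c SPARC libraries lay below all untreated ones. The filter on low counts kept Pdk4 because of the untreated group, so its values are given as a description; with no filter the fitted fold change, which depends on the prior count, was −4.41 (adjusted p = 0.00431). Pooled over the 3 libraries, 10 counts in IL4c SPARC against 188 in IL4c untreated cells give a ratio of 0.0460 after scaling for depth (95% exact interval 0.0217 to 0.0865, counting error only). In TG cells Pdk4 had 3, 1 and 0 counts in SPARC and 15, 4 and 3 counts in untreated libraries (adjusted p = 0.222, and 0.0286 with the block), a pooled ratio of 0.213 (0.0533 to 0.626).
Ppara, the receptor that drives oxidation genes in liver, had 12, 4 and 1 counts in IL4c SPARC and 11, 17 and 4 counts in IL4c untreated libraries, and 5, 0 and 0 counts in TG SPARC and 8, 0 and 1 counts in TG untreated libraries. It was not called in any comparison. Ppard, its relative with wide expression, was far higher, with 48.0, 41.6 and 39.5 CPM in IL4c SPARC and 57.4, 57.6 and 47.8 CPM in IL4c untreated libraries (−0.33 ± 0.12, adjusted p = 0.0556, and 0.00751 with the block). Its TG value was 0.08 ± 0.12 (adjusted p = 0.712). Ppargc1b, a coactivator of mitochondrial genes known for its part in IL-4 activation, had 9.44, 9.94 and 15.9 CPM in IL4c SPARC and 11.0, 12.8 and 16.3 CPM in IL4c untreated libraries (−0.19 ± 0.29, adjusted p = 0.672). In TG cells it had 9.90, 5.92 and 6.06 CPM with SPARC and 6.55, 3.99 and 4.62 CPM without (0.53 ± 0.29, adjusted p = 0.282, and 0.00989 with the block).

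Whether SPARC acted differently in the injections was tested as the difference of the SPARC fold changes, IL4c minus TG. No gene of the 33, and none of the 15232, passed in edgeR (0% called), where 1612 genes and 10 of the 33 had an unadjusted p under 0.05. Of those 10, Acsl5 had a positive difference (0.68 ± 0.22), and Cpt1a (−0.52 ± 0.18), Acadl (−0.63 ± 0.17), Acadm (−0.35 ± 0.09), Hadh (−0.56 ± 0.16), Echs1 (−0.27 ± 0.09), Acaa2 (−0.66 ± 0.16), Acat1 (−0.69 ± 0.27), Etfdh (−0.30 ± 0.10) and Ppard (−0.42 ± 0.16) had negative ones. DESeq2 called 5 of the 33 more negative in IL4c cells (1.27% of all tested genes), namely Echs1, Acadl, Hadh, Acaa2 and Acadm. With the replicate block 4 were (1.60%), namely Acadl (adjusted p = 0.0293), Acat1 (0.0444), Ppargc1b (0.0444) and Acaa2 (0.0464). Without both TG libraries numbered 1, 7 were negative (3.09%), namely Acadl, Etfdh, Hadh, Acox3, Acat1, Acaa2 and Acadm, and Acsl5 was positive (2.31%).

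The comparison of IL4c with TG cells asks how the way the cells were raised sets the pathway, and it uses the same libraries as the SPARC comparisons. In untreated wells 12 of the 33 genes, Pdk4 among them, were higher and 1 was lower in IL4c cells, where 10.2% of all tested genes were higher and 10.8% were lower. The place of Pdk4 among the 12 is a description, since it passed the filter only through the IL4c untreated libraries. In SPARC wells 5 were higher and 5 were lower, where 10.9% of all tested genes were higher and 10.1% were lower. Of the 20 mitochondrial genes, 7 were higher and 1 lower in untreated wells (median 0.24), and 3 were higher and 5 lower in SPARC wells (median 0.04). Of the 5 peroxisomal genes, 1 was higher in each kind of well (medians 0.26 and 0.16). On the log2(FPKM + 1) scale with limma, 6 genes were higher in untreated wells, where 7.52% of the genes tested there were higher.

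In untreated wells Acadl had 146, 139.7 and 139 CPM in IL4c and 77.0, 91.6 and 92.2 CPM in TG libraries, without overlap, and was higher by 0.70 ± 0.12 (adjusted p = 0.00483). Hadh, with 48.2, 51.1 and 58.5 CPM in IL4c and 37.3, 30.1 and 32.3 CPM in TG libraries, was higher by 0.66 ± 0.11 (adjusted p = 0.00497), and Etfa, with 73.2, 67.5 and 77.2 CPM in IL4c and 47.5, 46.7 and 49.3 CPM in TG libraries, by 0.60 ± 0.09 (adjusted p = 0.00264). Crat (0.55 ± 0.10, adjusted p = 0.00678), Etfdh (0.35 ± 0.07, adjusted p = 0.00802), Echs1 (0.27 ± 0.06, adjusted p = 0.0170) and Acadm (0.23 ± 0.06, adjusted p = 0.0230) were higher as well. Acadvl was the one gene lower (−0.21 ± 0.06, adjusted p = 0.0235), a call lost in 8 of the 12 fits that left out 1 library (adjusted p between 0.0572 and 0.129).
Outside the mitochondrial steps, the isomerase Eci2 had 57.6, 54.7 and 49.2 CPM in IL4c and 33.6, 21.1 and 21.7 CPM in TG libraries and was higher by 1.08 ± 0.19 (adjusted p = 0.00544). Acsl4 had 207, 171 and 199 CPM in IL4c and 117, 101 and 106 CPM in TG libraries and was higher by 0.83 ± 0.09 (adjusted p = 7.39e-04), the one synthetase that was called. Among the regulators, Ppargc1b was higher by 1.40 ± 0.29 (adjusted p = 0.0103) and Ppard by 0.41 ± 0.12 (adjusted p = 0.0313). Pdk4 was kept by the filter because of IL4c untreated cells and is given as a description; with no filter its fitted value was 3.40 (adjusted p = 0.0187). The pooled Pdk4 counts, 188 in IL4c and 22 in TG libraries, give a ratio between 6.42 and 16.4 after scaling for depth (95% exact interval, counting error only).
The calls of Acadm, Echs1 and Ppard were each lost in 3 or 4 of the 12 fits that left out 1 library, all of them without TG untreated replicate 2 or 3 or IL4c untreated replicate 1 or 2 (adjusted p between 0.0517 and 0.106). That of Pdk4 was lost in 3 of the 12 (adjusted p between 0.0637 and 0.0734). With total-count scaling and in both FPKM fits the calls of Etfdh, Acadm, Echs1 and Ppard were lost. The call of Crat was lost in both FPKM fits.
In the same wells 10 large resident macrophage markers summed to between 3727 and 7600 CPM in IL4c and between 1377 and 2850 CPM in TG libraries. Fn1 weighed most in these sums. Of the 10 genes, 5 were called higher and none lower in IL4c cells (median 2.50). The part of these markers in the differences was not tested.

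In SPARC wells Acsl4 (0.97 ± 0.09, adjusted p = 2.36e-04), Eci2 (0.73 ± 0.19, adjusted p = 0.0224), Etfa (0.35 ± 0.09, adjusted p = 0.0201), Crat (0.34 ± 0.10, adjusted p = 0.0433) and Hadha (0.33 ± 0.07, adjusted p = 0.00899) were higher in IL4c cells. Acad9 had 13.3, 13.8 and 14.2 CPM in IL4c SPARC and 19.4, 17.5 and 18.3 CPM in TG SPARC libraries and was lower, with a fold change of −0.42 ± 0.08 (adjusted p = 0.00786). Cpt1a (−0.43 ± 0.13, adjusted p = 0.0426), Acaa2 (−0.39 ± 0.12, adjusted p = 0.0409), Etfb (−0.38 ± 0.10, adjusted p = 0.0236) and Acadvl (−0.18 ± 0.06, adjusted p = 0.0446) were lower too. Left out 1 at a time, the libraries decided many of these calls: between 2 and 8 genes were higher and between 0 and 5 were lower in the 12 fits. Leaving out TG SPARC replicate 1 gave 8 higher genes, and leaving out TG SPARC replicate 2, TG SPARC replicate 3 or IL4c SPARC replicate 1 gave 2, and leaving out IL4c SPARC replicate 2 gave 3. Between 0 and 3 genes were lower in 10 of the 12 fits, all but those without TG untreated replicate 1 or IL4c SPARC replicate 3. None was lower without IL4c SPARC replicate 1. Acsl4 was called in all 12.

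**Figure D5:**
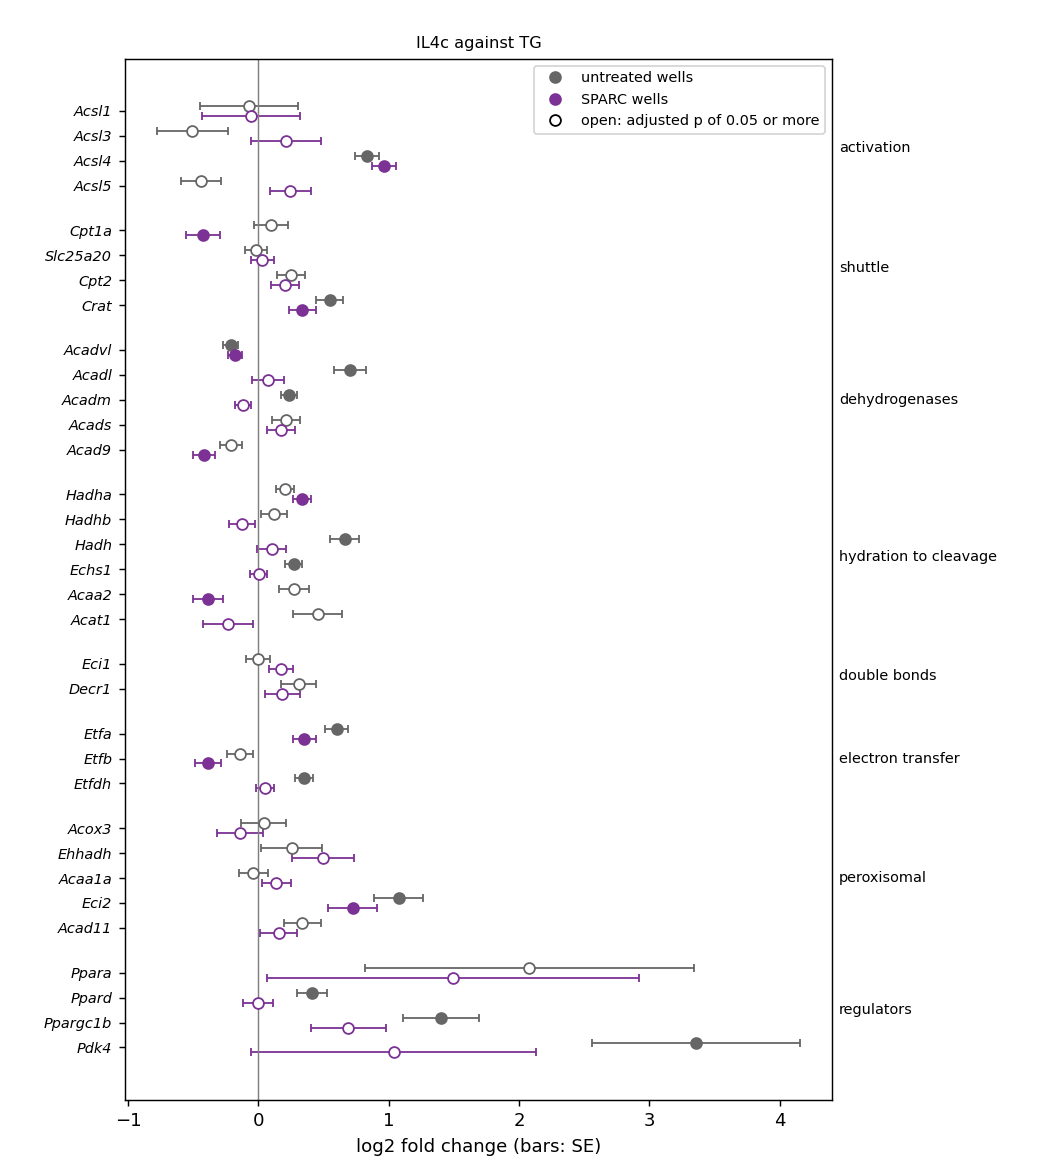
Log2 fold change of IL4c over TG cells (bars: SE) for the 33 genes, ordered by step, in untreated wells and in SPARC wells. Filled points had an adjusted p under 0.05 (edgeR). Of these, 12 lie right of 0 and 1 left of it in untreated wells, and 5 on each side in SPARC wells. The 12 include Pdk4, which passed the filter only through the IL4c untreated libraries.

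Around these genes, the wider pathway was followed in lists. The counts of each list below stand beside the shares over all tested genes. These were 6.73% higher and 4.52% lower in TG SPARC cells, and 15.1% higher and 12.7% lower in IL4c SPARC cells. Of 18 tested genes of other mitochondrial fatty acid oxidation, none was higher and 2 were lower in TG SPARC cells (median −0.12), and none was higher and 4 were lower in IL4c SPARC cells (median −0.09). Acad12, related to the acyl-CoA dehydrogenases, fell by 0.62 ± 0.14 in TG (adjusted p = 0.0201) and 0.86 ± 0.14 in IL4c cells (adjusted p = 0.00176). Pccb, a subunit of propionyl-CoA carboxylase, fell by 0.65 ± 0.15 (adjusted p = 0.0243) and 1.46 ± 0.16 (adjusted p = 2.29e-04), and Acsf2, a synthetase of medium chains, by 1.36 ± 0.21 in IL4c cells (adjusted p = 0.00137). Cpt1b, the muscle form of the shuttle's first enzyme, had values of −0.25 ± 0.27 in TG and −0.59 ± 0.27 in IL4c cells and was not called.

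Of 23 tested genes of other peroxisomal oxidation, 1 was higher and 1 was lower in TG SPARC cells (median −0.08), and 2 were higher and 7 were lower in IL4c SPARC cells (median −0.13). Ech1, a double-bond isomerase of peroxisomes and mitochondria, fell by 0.41 ± 0.10 in TG (adjusted p = 0.0249) and 0.58 ± 0.10 in IL4c cells (adjusted p = 0.00199). Nudt19, which cleaves coenzyme A, rose by 0.59 ± 0.11 in TG cells (adjusted p = 0.0101). In IL4c cells Phyh, which starts α-oxidation of branched chains, had 188, 261 and 167 CPM with SPARC, against 68.0, 70.5 and 80.2 CPM without, and rose by 1.49 ± 0.20 (adjusted p = 6.86e-04). Abcd2, a transporter of very long chains, had 72.0, 81.7 and 72.3 CPM with SPARC, against 156, 172 and 154 CPM without, and fell by 1.09 ± 0.17 (adjusted p = 0.00153).

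In the malonyl-CoA control of Cpt1, none of 10 genes was higher and 2 were lower in TG SPARC cells (median −0.11), and 1 was higher and 2 were lower in IL4c SPARC cells (median −0.01). Mlycd, which breaks malonyl-CoA down, fell by 0.41 ± 0.09 in TG (adjusted p = 0.0216) and 0.63 ± 0.09 in IL4c cells (adjusted p = 0.00111). Prkag2, a subunit of AMP-activated kinase, had 19.3, 17.8 and 18.4 CPM in IL4c SPARC, against 38.1, 38.9 and 36.3 CPM in IL4c untreated libraries, and fell by 1.03 ± 0.10 (adjusted p = 1.38e-04), and by 0.38 ± 0.10 in TG cells (adjusted p = 0.0308). The catalytic subunit gene Prkaa1 rose by 0.29 ± 0.09 in IL4c cells (adjusted p = 0.0356).

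Of 13 tested genes of fatty acid uptake and binding, 2 were higher and 1 was lower in TG SPARC cells (median −0.05), and 2 were higher and 3 were lower in IL4c SPARC cells (median −0.61). Pnpla2, which releases fatty acids from stored triglyceride, fell by 0.70 ± 0.16 in TG (adjusted p = 0.0197) and 1.04 ± 0.16 in IL4c cells (adjusted p = 0.00125). Lipa, the acid lipase of lysosomes, fell by 1.71 ± 0.41 in IL4c cells (adjusted p = 0.0126). Slc27a4, a transport protein with synthetase activity, rose by 0.35 ± 0.09 in TG (adjusted p = 0.0391) and 0.54 ± 0.09 in IL4c cells (adjusted p = 0.00244), and Fabp3, a binding protein, by 1.37 ± 0.37 in TG cells (adjusted p = 0.0432).

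Of 18 tested transcription factors and coactivators, none was higher and 1 was lower in TG SPARC cells (median −0.11), and none was higher and 3 were lower in IL4c SPARC cells (median −0.05). Lpin1, which is both a phosphatase of lipid synthesis and a coactivator of PPARα, had 12.5, 9.40 and 11.0 CPM in IL4c SPARC, against 56.3, 57.3 and 72.3 CPM in IL4c untreated libraries, and 8.53, 17.0 and 16.3 CPM in TG SPARC, against 53.5, 47.1 and 56.4 CPM in TG untreated libraries. It fell by 2.50 ± 0.24 in IL4c (adjusted p = 1.57e-04) and 1.91 ± 0.24 in TG cells (adjusted p = 0.00179). Rxra, the partner of PPARs, fell by 0.87 ± 0.12 in IL4c cells (adjusted p = 9.68e-04), and Gabpa, a factor of nuclear genes for mitochondria, by 0.30 ± 0.08 (adjusted p = 0.0252). Pparg, the PPAR of fat cells and IL-4-activated macrophages, had 8, 17 and 72 counts in IL4c SPARC and 124, 118 and 504 counts in IL4c untreated libraries (−3.08 ± 1.20, adjusted p = 0.0834), and its TG value was −2.09 ± 1.08 (adjusted p = 0.253). Ppargc1a was not called, with −0.93 ± 0.86 in TG and 0.03 ± 0.99 in IL4c cells.

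A further list joined PPAR targets outside oxidation with Txnip and the other Pdk genes, which were not shown here to be PPAR targets. Of its 10 tested genes, 2 (Pdk1 and Pdk3) were higher and 2 were lower in TG SPARC cells (median −0.50). In IL4c SPARC cells none was higher and 5 were lower (median −0.50). Angptl4, an inhibitor of lipoprotein lipase, had 0.158, 0.247 and 0.900 CPM in IL4c SPARC, against 3.18, 8.59 and 4.63 CPM in IL4c untreated libraries, and fell by 3.64 ± 0.63 (adjusted p = 0.00261), and by 2.41 ± 0.58 in TG cells (adjusted p = 0.0271). Ucp2, a carrier of the inner mitochondrial membrane, fell by 1.71 ± 0.24 in IL4c cells (adjusted p = 9.21e-04), and Txnip, an inhibitor of thioredoxin and of glucose uptake, by 0.99 ± 0.21 (adjusted p = 0.00651). Pdk1 and Pdk3, kinases like Pdk4 that inhibit pyruvate dehydrogenase, rose in TG cells by 1.25 ± 0.30 (adjusted p = 0.0256) and 0.90 ± 0.13 (adjusted p = 0.00390).
Of 6 tested genes of ketone body metabolism, none was called in TG SPARC cells by edgeR (median 0.35). There 3 (Bdh2, Oxct1, Acat2) had an unadjusted p under 0.05, as did 4049 of the 15232 tested genes. In IL4c SPARC cells 1 of the 6 was higher and 1 was lower (median 0.17). Bdh2 had 1.87, 2.05 and 2.98 CPM in IL4c SPARC, against 0.0325, 0.0605 and 0.160 CPM in IL4c untreated libraries, and rose by a fitted 4.68 ± 0.77 (adjusted p = 0.00196), a value that depends on the prior count since the untreated libraries held 1, 2 and 6 counts. Oxct1, the enzyme that lets cells burn ketone bodies, fell by 0.80 ± 0.19 in IL4c cells (adjusted p = 0.0122).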

How the data were processed

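The authors deposited 1 matrix of expected counts per gene, not scaled, of which 7.97% are not whole, and 1 of FPKM, scaled by the authors for gene length and depth. CASAVA, bcl2fastq 1.8.4, STAR and RSEM are named in the submitters' processing notes. The build and annotation, and any use of strand, were not given in the sources used here. Gene positions are those of GENCODE M21 on GRCm38, whose identifiers match 98.9% of the 47729 gene rows without version.

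Counts were rounded and fitted with edgeR 4.0.16 in R 4.3.3 (TMM, filterByExpr with a minimum count of 10, robust quasi-likelihood F test, 12 libraries in 4 groups, 8 residual degrees of freedom). The SE is the absolute log2 fold change over the square root of F. Each SPARC comparison, IL4c against TG in each kind of well, and the difference of the SPARC responses were tested, with Benjamini-Hochberg adjustment over 15232 genes. The script was tested on simulated data. All 33 genes are described; from each further list up to 3 called genes with the smallest p per SPARC comparison are named, plus Pparg, Ppargc1a and Cpt1b. Members and lists were chosen with earlier results of these data known. Same-numbered libraries deviated from their group means together, with correlations of 0.342 to 0.735 in the 6 pairs within an injection and of −0.178 to 0.250 across injections. Differently numbered libraries of the same injection gave −0.659 to 0.507, so single pairs overlap with the same-numbered ones. Among libraries of the same injection and the other treatment, each library correlated most with the same-numbered one. The margin could be small: TG SPARC 3 gave 0.533 with TG untreated 3 and 0.507 with TG untreated 2. On that ground numbers were read, from the data and not the labels, as pairing libraries within an injection only. The correlations do not settle this reading, so the replicate block is given as an alternative fit. Other fits used RLE or total-count scaling, DESeq2 1.42.0, no filter, limma 3.58.1 on log2(FPKM + 1) or log2(FPKM + 0.1) of genes of at least 1 FPKM in 3 libraries, the compared groups alone, the replicate block and left-out libraries.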

Additional observations from a re-analysis of the deposited data

How the results depend on the processing

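Of the 50 calls of a gene in a comparison, 24 held in every alternative fit that tested the gene, and 0 reversed. There were 22 such fits, but only 20 for Pdk4, which the FPKM fits did not test. The 50 and the 24 include Pdk4, which passed the filter only through the IL4c untreated libraries and is given as a description. The share of all tested genes stands in brackets after a count. For SPARC in TG cells, the count of higher genes, 4 (6.73%), was 7 (9.94%) with DESeq2, 8 (14.3%) with the replicate block, 2 (2.58%) with the compared groups alone and 2 to 7 (3.02% to 8.21%) with 1 library left out. The count of lower genes, 5 (4.52%), was 2 (1.40%) with no filter on low counts, 1 (0.970%) with the compared groups alone, 3 (5.93%) without both TG libraries numbered 1 and 0 to 5 (1.66% to 5.24%) with 1 library left out, with 0 without TG SPARC replicate 3. For SPARC in IL4c cells, leaving out 1 library gave 5 higher in each fit (8.91% to 17.9%) and 10 to 15 lower (6.96% to 15.3%). For IL4c against TG in untreated wells, the count of higher genes, 12 (10.2%), was 6 (7.52%) with log2(FPKM + 1), 6 (7.41%) with log2(FPKM + 0.1) and 8 to 15 (5.42% to 14.9%) with 1 library left out. The count of lower genes, 1 (10.8%), was 3 (18.3%) with total-count scaling, 2 (13.4%) with DESeq2, 0 (3.53%) with no filter, 2 with either FPKM fit (19.5% and 19.7%), 3 (19.7%) without both TG libraries numbered 1, 0 (6.99%) without both IL4c libraries numbered 3 and 0 to 2 (3.33% to 14.4%) with 1 library left out. In SPARC wells, the count of higher genes, 5 (10.9%), was 3 (9.13%) with total-count scaling, 3 with either FPKM fit (9.61% and 9.18%), 8 (17.7%) without both TG libraries numbered 1 and 2 to 8 (6.57% to 14.3%) with 1 library left out. The count of lower genes, 5 (10.1%), was 3 (4.27%) with no filter, 2 (12.4%) with the replicate block, 1 (7.91%) with the compared groups alone and 0 to 5 (4.22% to 13.2%) with 1 library left out. For the difference of the SPARC responses, the count of higher genes, 0 (0%), was 1 (2.31%) without both TG libraries numbered 1 and 0 to 1 (0% to 0.751%) with 1 library left out. The count of lower genes, 0 (0%), was 5 (1.27%) with DESeq2, 4 (1.60%) with the replicate block, 7 (3.09%) without both TG libraries numbered 1 and 0 to 2 (0% to 1.03%) with 1 library left out. The causes were not tested. The replicate block, read as a pairing within an injection, changed no SPARC call other than those named beside their genes. Between injections the numbers do not pair the libraries. For IL4c against TG the block nevertheless joined same-numbered libraries of both injections. Its values there, which count among the 22 fits, therefore do not stand for a pairing. Depth limits what can be said of Ppara, which had between 0 and 17 counts in every library.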
